A study of Mus musculus with 2 samples.

Results

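The 4 genes Pdx1, Nkx6-3, Nkx2-5 and Gata3, transcription factors known from the antrum and the pylorus, were followed in RNA of the newborn mouse stomach. They were taken by symbol from the 43346 Ensembl genes of the deposited tables, and all 4 were found. Total RNA of 1 whole stomach from each of 2 littermate pups of strain B6NCrl was sequenced at age 0 days, as 1 library per pup, with the sex not collected and no allele or agent named. The libraries were made from 10.0 ng of RNA above 200 nucleotides, with spike-ins added, and their depth was 51524479 expected counts (pup 1) and 49983574 (pup 2). There is 1 group and no second condition, so no test between conditions was possible, and the values describe the level of each factor and how far the pups differed. The stomachs were not divided into regions, so antral, pyloric and other RNA was measured together.

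The antrum is the gland-bearing end of the stomach that makes gastrin and mucus, and the pylorus is the ring of muscle that closes it off from the duodenum. Pdx1, a ParaHox homeodomain protein, marks the epithelium of the distal antrum, the duodenum and the pancreas and is needed for gastrin cells. Nkx6-3, an NK6 homeodomain protein of antral and duodenal epithelium, sets the balance between gastrin and somatostatin cells. Nkx2-5, an NK2 homeodomain protein best known from the heart, and Gata3, a zinc finger protein best known from T cells, act in the mesenchyme from which the pyloric sphincter forms.

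Levels are given in TPM, which scales a count by transcript length and library depth, as mean ± SD of the 2 pups or per pup. The interval given beside a TPM is the authors' deposited 95% credibility interval, which covers the quantification of 1 library and not the spread between animals. The detection limit was 1 TPM, to be reached by each pup, and was met by 13125 of 21461 nuclear protein-coding genes (61.2%). Of the 4 factors, 3 were detected, and Nkx2-5 was not; a limit of 0.1 TPM would take in all 4, and one of 5 TPM only Gata3 and Nkx6-3. With 4 genes, this count is a description and is not read against that background.

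Tissue identity was checked on markers. The 7 genes of stomach epithelium were all detected, led by Pga5 (19168 TPM in pup 1 and 20021 in pup 2), Tff1 (12874 and 13022) and Gkn2 (5460 and 5341). The 7 genes of gut smooth muscle were also all detected, led by the actins Acta2 (3358 and 2921) and Actg2 (3273 and 2470) and by Tagln (789 and 600.3). Their summed TPM was 8444 in pup 1 and 6799 in pup 2, a ratio of 0.805, while that of the epithelial genes was 43011 and 44167, a ratio of 1.03.

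The RefSeq windows around the start sites (GRCm38.p6, 250 bases before to 50 after) are shown for 3 of the 4 factors, because the counts below depend on which start or strand they are credited to. The Gata3 window, chr2:9878551-9878850 on the minus strand, holds the start of the single transcript that received counts, and the Nkx2-5 window, chr17:26841516-26841815 on the minus strand, holds that of the only Nkx2-5 transcript in the deposited tables. The Pdx1 window, chr5:147269847-147270146 on the plus strand, lies within the span of the antisense gene Plut. It is set around a RefSeq start at base 147270097. In the GENCODE M21 annotation the counted Pdx1 transcript starts 138 bases upstream of that, at base 147269959, also within the window. The deposited model of this transcript is longer (4318 bases against 2158 in M21), so the start that was used for counting may differ. Capitals mark the letters GATAA (a core that GATA factors bind), AAGTG (a core of NK2 factors) or TAAT (a general homeodomain core), searched on both strands; no match overlapped another.
Gata3: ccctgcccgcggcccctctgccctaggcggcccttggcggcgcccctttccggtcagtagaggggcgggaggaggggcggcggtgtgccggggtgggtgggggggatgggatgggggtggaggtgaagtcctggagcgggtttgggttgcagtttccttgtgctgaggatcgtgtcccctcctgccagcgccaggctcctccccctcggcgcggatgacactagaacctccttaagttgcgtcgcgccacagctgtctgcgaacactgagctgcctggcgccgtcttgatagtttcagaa
Nkx2-5: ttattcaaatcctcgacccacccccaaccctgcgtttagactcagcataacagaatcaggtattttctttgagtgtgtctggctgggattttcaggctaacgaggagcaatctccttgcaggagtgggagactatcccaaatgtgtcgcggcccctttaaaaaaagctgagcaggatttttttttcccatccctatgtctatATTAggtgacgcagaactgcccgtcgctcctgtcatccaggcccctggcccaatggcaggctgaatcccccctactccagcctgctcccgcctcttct
Pdx1: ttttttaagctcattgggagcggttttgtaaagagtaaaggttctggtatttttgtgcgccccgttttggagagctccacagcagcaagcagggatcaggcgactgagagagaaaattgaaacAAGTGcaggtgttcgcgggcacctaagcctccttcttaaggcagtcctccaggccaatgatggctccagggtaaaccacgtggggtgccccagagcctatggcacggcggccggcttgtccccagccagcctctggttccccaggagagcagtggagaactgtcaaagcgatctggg

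The Pdx1 window held 1 AAGTG, at bases 124 to 128 of the window, downstream of the first base of the transcript in GENCODE M21. The Nkx2-5 window held 1 TAAT on the opposite strand, at bases 203 to 206. The Gata3 window held none of the 3 motifs. Among all 32851 RefSeq windows of the same length, 25.4% held GATAA, 46.4% AAGTG and 58.0% TAAT on either strand, so such matches are common. Of the bases in the Gata3 window, 67.3% were G or C, against 51.7% for Nkx2-5, 55.3% for Pdx1 and a median of 52.7% over all windows.

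Gata3 had the highest level of the 4 factors. In pup 1 its TPM was 6.43 (interval 6.31 to 8.04), and in pup 2 it was 7.62 (7.48 to 9.25), from 828 and 944 counts, a mean of 7.03 ± 0.841. It was above 59.5% of protein-coding genes, with 8684 of them higher. Nkx6-3 followed, at 5.86 in pup 1 (5.30 to 6.29) and 5.35 in pup 2 (4.80 to 5.77), from 518 and 455 counts, a mean of 5.61 ± 0.361 that exceeded 56.1% of protein-coding genes. Both factors thus lay near the middle of all 21461 protein-coding genes, of which 2885 had 0 counts in both pups. Among the 13125 detected genes alone their place would be lower.

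Pdx1 stood lower, at 1.58 TPM in pup 1 (1.38 to 1.75) and 1.37 in pup 2 (1.19 to 1.54), from 276 and 230 counts, a mean of 1.48 ± 0.148. Nkx2-5 was the lowest, at 0.78 in pup 1 (0.571 to 1.01) and 0.14 in pup 2 (0.0633 to 0.261), from 46 and 8 counts, a mean of 0.460 ± 0.453. Nkx2-5 was the only one of the 4 with an SD close to its mean. Both pups lay above 3 counts, the limit that a count of 0 allows, which is a CPM (count scaled to the depth of the library) of 0.0582 in pup 1 and 0.0600 in pup 2.

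**Figure D1:**
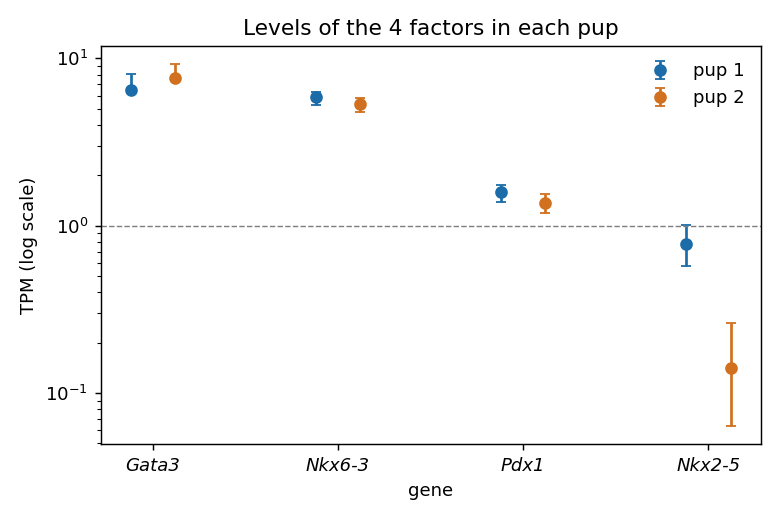
TPM of the 4 factors (log axis) in pup 1 (blue) and pup 2 (orange), with the deposited 95% credibility interval as bars and the detection limit of 1 as a dashed line. Gata3, Nkx6-3 and Pdx1 sit close together in the 2 pups, whereas Nkx2-5 is at 0.78 and 0.14 with intervals that are apart.

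The order Gata3, Nkx6-3, Pdx1, Nkx2-5 was the same in both pups. The mean of Nkx6-3 was 3.80 times that of Pdx1, and that of Pdx1 was 3.21 times that of Nkx2-5, with deposited intervals apart in each pup. Gata3 was 1.25 times Nkx6-3, and the gene intervals were apart by little in pup 1 (6.31 against 6.29). With the interval of the main Gata3 transcript alone, 5.88 to 6.74 in pup 1, the pair overlapped in that pup, so Gata3 and Nkx6-3 could not be ordered there within quantification error.

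The level of Pdx1 depended on its gene model. The deposited table used a transcript of 4318 bases, while the GENCODE M21 model of the same transcript has 2158 bases in 2 exons. Were all reads in the shorter model, the TPM of Pdx1 would be 3.24 in pup 1 and 2.81 in pup 2, 2.05 times the deposited values and still below Nkx6-3. The mean of Nkx6-3 would then be 1.85 times that of Pdx1, and that of Pdx1 6.57 times that of Nkx2-5. Where along the gene its reads lie was not tested.

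Each factor is annotated on mm10, with positions from GENCODE M21. Pdx1 (ENSMUSG00000029644.6) spans chr5:147269959-147275848 on the plus strand. Its first 1563 bases are overlapped by Plut, an antisense RNA gene of the minus strand, with 74 counts in pup 1 (1.54 TPM) and 81 in pup 2 (1.76 TPM). No source used here states whether counting used strand, so reads of the overlap may belong to either gene. The intestinal ParaHox gene Cdx2, whose nearest edge lies 24.956 kb from Pdx1, had 5 and 4 counts.

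Nkx6-3 (ENSMUSG00000063672.7) lies at chr8:23153269-23158948 on the plus strand, with 3 exons, and overlaps no other gene in the tables. Ank1, a membrane skeleton gene that ends 2.771 kb before it, stood at 0.56 and 0.46, far below Nkx6-3. On its other side Gpat4, a glycerolipid synthesis gene 12.316 kb away, stood at 33.1 and 32.0. The Nkx2-5 transcript (gene ENSMUSG00000015579.4) spans chr17:26838664-26841565 on the minus strand in 2 exons, and no other gene in the tables overlaps the gene. Of its neighbours within 60 kb, Bnip1 stood at 29.8 in pup 1 and 29.0 in pup 2, so the difference seen at Nkx2-5 was not seen there.

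For Gata3 (ENSMUSG00000015619.10, chr2:9857078-9890034, minus strand) the tables list 6 transcripts. Every expected count, 828 in pup 1 and 944 in pup 2, went to the protein-coding transcript ENSMUST00000102976.3, which has 6 exons and starts at base 9878600, in the window printed above. Of the other 5 transcripts, 3 start 9184 to 11434 bases further upstream, and the 5 shared a summed posterior mean of 4.56 counts in pup 1 and 6.07 in pup 2. The posterior mean TPM gave the main transcript 88.7% and 89.8% of the gene, and the deposited gene interval, which takes in the 5 other transcripts, sits mostly above the TPM. The other 3 factors have 1 transcript each in the tables. Genes that overlap Gata3, the antisense Gm13256 among them, had at most 1 count in either pup.

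Among 13 NK homeobox genes measured, 4 were detected and 3 (Nkx1-2, Nkx2-4 and Nkx2-9) had 0 counts in both pups. Nkx6-3 was second in this family. Nkx6-2, its relative known from the nervous system, stood at 7.12 in pup 1 and 5.42 in pup 2, with counts of 417.11 and 308.78 that are not whole because some reads were shared with other genes. Nkx2-3, a factor of gut mesenchyme, followed at 4.94 and 4.63. Nkx6-1, a factor of insulin cells, came next, at 1.47 in pup 1 and 2.74 in pup 2. Below the detection limit came Nkx3-2, a factor of the mesenchyme near the pylorus, at 0.90 and 0.73, the endocrine factor Nkx2-2 at 0.55 and 0.40, and then Nkx2-5. Nkx1-1, Nkx2-1 and Nkx2-6 had 0 counts in pup 1 and 1 to 3 in pup 2. In pup 1 Nkx2-5 (0.78) stood above Nkx2-2, and in pup 2 (0.14) below it.

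Of the 6 GATA genes, 5 were detected, and Gata3 came after Gata4 and Gata6. Gata4, a factor of gastric epithelium, stood at 23.8 in pup 1 and 31.9 in pup 2, and Gata6, expressed in epithelium and mesenchyme of the gut, at 15.5 and 17.7. Gata5, another endoderm factor, stood at 5.08 and 5.66 and Gata2, a factor of blood and mast cells, at 1.40 and 1.36. Gata1, the erythroid factor, was at 0.07 and 0.24. Gata3 was above Gata5 in both pups, and its lower value (6.43) exceeded the higher value of Gata5 (5.66). Of the 6 ParaHox genes, Pdx1 alone was detected: Cdx1 stood at 0.23 in both pups and Cdx2 at 0.06 and 0.05, Cdx4 and Gsx2 had at most 2 counts, and Gsx1 had 0 in both.

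**Figure D2:**
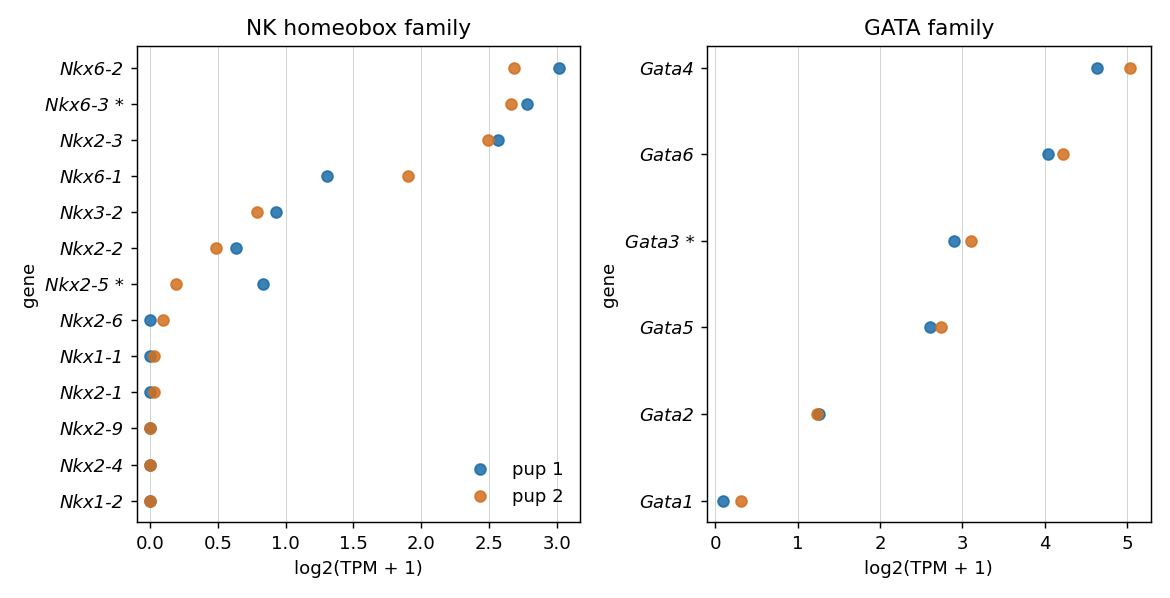
Levels of the NK homeobox and GATA genes as log2(TPM + 1) in pup 1 (blue) and pup 2 (orange), sorted by mean TPM, with an asterisk at the factors described here. Nkx6-3 stands with Nkx6-2 and Nkx2-3 above the rest of its family, and Gata3 stands between Gata6 and Gata5. On this axis the gap between pups is widest for Nkx2-5 (-0.64, pup 2 against pup 1) and next for Nkx6-1 (0.60).

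Among 44 transcription factors of the related lists, ranked by mean TPM, 31 were below Gata3, 28 below Nkx6-3, 20 below Pdx1 and 13 below Nkx2-5. The nearest in level to Gata3 were the endoderm factor Foxa2 (10.1 ± 0.297) above and Irx3 (6.91 ± 0.113) below. Nkx6-3 lay between Nkx6-2 (6.27 ± 1.20) and Gata5 (5.37 ± 0.410), Pdx1 between Nkx6-1 (2.11 ± 0.898) and Gata2 (1.38 ± 0.0283), and Nkx2-5 (0.460 ± 0.453) between Nkx2-2 (0.475 ± 0.106) and Cdx1 (0.230 in both pups). That place of Nkx2-5 holds for the mean only, since it was above Nkx2-2 in pup 1 and below Cdx1 in pup 2. With the shorter model, 22 of the 44 factors would be below Pdx1. These neighbours share a level only, and with 2 libraries no likeness of pattern over samples was computed.

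The pups were compared by the ratio of CPM, with an exact 95% binomial interval, which covers no more than counting error. If PCR copies of a molecule were counted as separate reads, the interval is too narrow even for that. Nkx2-5 had a CPM of 0.893 in pup 1 (exact interval 0.654 to 1.19) and 0.160 in pup 2 (0.0691 to 0.315). It was 5.58 times higher in pup 1 (2.61 to 13.7). On the scale of log2(TPM + 1), which understates differences of low genes, this is a difference of -0.64 for pup 2 against pup 1. In bulk RNA, fewer cells of a type and less RNA per cell cannot be told apart.

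The other 3 factors stood at close levels in the pups. Nkx6-3 was 1.10 times higher in pup 1 (0.972 to 1.26) and Pdx1 1.16 times (0.974 to 1.39), so neither differed beyond counting error. Gata3 was 1.18 times higher in pup 2 (1.07 to 1.29), beyond counting error, but its deposited gene intervals overlapped between pups. Those of its main transcript, 5.88 to 6.74 and 6.99 to 7.96, did not. By a chi-square on counts, 41.7% of the 13125 detected genes differed between the pups beyond the 95% point, so such a difference is common between these libraries.

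A gene was called different between pups where the deposited intervals were apart, TPM differed 2-fold or more and the mean count reached 100. By this rule 59 of 13891 genes (0.425%) were called, 17 of them (0.122%) lower in pup 2, and none of the 3 factors with enough counts was among them. Nkx2-5 had too few counts for that limit. With a minimum mean count of 10 it was called lower in pup 2, as 46 of 18333 genes were (0.251%), and 110 (0.600%) were called higher. Between a mean count of 10 and 100, where Nkx2-5 lies, 29 of 4442 genes (0.653%) were called lower in pup 2. With 1 library per pup this difference has no replicate check and no p.

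**Figure D3:**
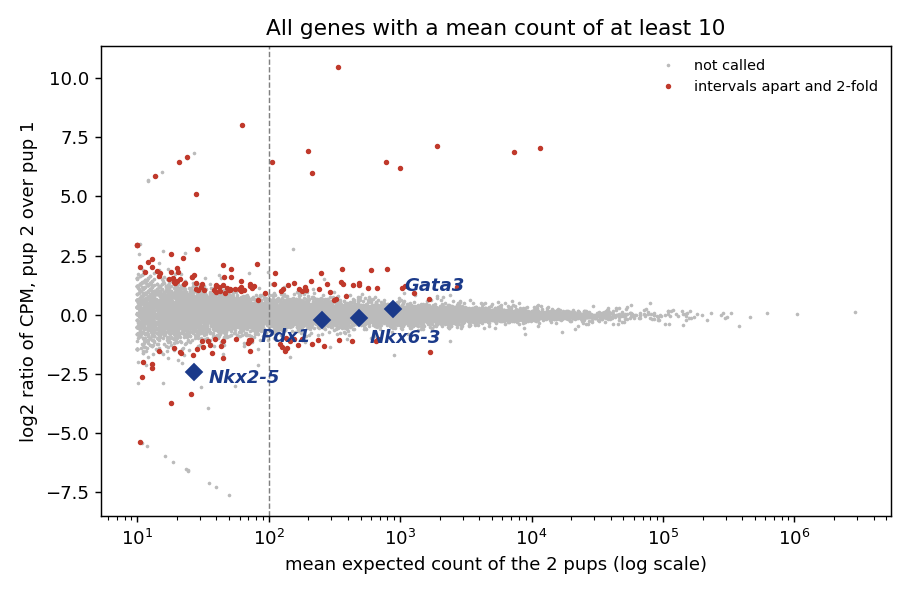
Log2 ratio of CPM, pup 2 over pup 1, with 0.5 counts added in each pup, against the mean expected count (log axis) for the 18333 genes with a mean count of at least 10; red points are the genes with intervals apart and 2-fold or more, blue diamonds the 4 factors, and the dashed line a mean count of 100. Gata3, Nkx6-3 and Pdx1 lie in the dense band around 0, and Nkx2-5 lies below it at a low count.

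Genes of the pyloric sphincter programme (10 genes of the mesenchyme and its signals) gave no call between pups, and 9 were detected. Barx1, the stomach mesenchyme factor, stood at 140.7 and 172, Sox9, a factor of the sphincter mesenchyme and of epithelium, at 23.2 and 22.9, the hedgehog signal Ihh at 21.5 and 22.2, and Isl1, a factor of the pyloric mesenchyme and of endocrine cells, at 16.2 and 15.4. Grem1, a BMP antagonist of the pylorus, was at 2.83 in pup 1 and 1.95 in pup 2, 1.47 times higher in pup 1 (1.27 to 1.70). Six2, a factor of the distal stomach mesenchyme, stood at 2.27 and 3.40, 1.44 times higher in pup 2 (1.19 to 1.75). Over the 9 genes with a mean TPM of at least 1, the median log2 difference of pup 2 from pup 1 was -0.01, against 0.03 over all protein-coding genes. Of these 9, 4 were higher and 5 lower in pup 2. Among the 7 smooth muscle genes, 6 were lower in pup 2, with a median log2 difference of -0.36 and none called, and the part of muscle in the Nkx2-5 difference was not tested.

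Lists of the antral epithelium were set beside Pdx1 and Nkx6-3. In undivided stomachs the region that expressed these genes is not known, so their levels are not read as antral. Of 12 genes of antral endocrine cells, 5 were detected and none was called. Gast, the gastrin gene, stood at 72.7 in pup 1 and 44.6 in pup 2, 1.65 times higher in pup 1 (1.49 to 1.82), while Sst, the somatostatin gene, stood at 67.6 and 67.1 and the granule protein gene Chga at 24.8 and 28.2. The list had a median TPM of 0.765 and 0.625, against 3.48 and 3.63 for all protein-coding genes. Of the 6 antral gland genes, 5 were detected, led by the trefoil gene Tff2 (814 and 743), the mucin Muc6 (11.7 and 9.68) and the gastrin receptor gene Cckbr (3.21 and 2.90). The 5 with a mean TPM of at least 1 were all lower in pup 2, with a median log2 difference of -0.13. Aqp5, a water channel of antral glands (0.55 and 1.14), was called higher in pup 2 at a minimum count of 10, as 110 of 18333 genes were (0.600%).

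Of 11 Pdx1 cofactors and regulators, 8 were detected and none was called. They were led by the homeodomain cofactor Meis1 (42.1 and 43.6), Sox9 and the endoderm factor Foxa1 (13.8 and 24.6). Of 7 factors listed for the corpus and fundus side, 6 were detected, Irx2 at 11.1 and 9.72 next after Gata4 and Gata6, and none was called. Gata4 and Gata6 were described above as factors of gastric epithelium and of the gut, so this list is not read as a mark of that region. The leading genes of both lists stood far above Pdx1 itself.

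Pdx1 is also a factor of duodenum and pancreas, so markers of both were measured. Of 12 duodenum and intestine genes, 6 were detected, led by the fatty acid carriers Fabp1 (179 and 180.4) and Fabp2 (18.5 and 15.6) and the microvillus gene Vil1 (11.0 and 9.54), with a summed TPM of 226 and 216. Lct (2.36 and 1.11), Alpi (9.83 and 4.89), which are brush border enzymes, and the factor Onecut2 (0.44 and 0.22) were called lower in pup 2. These are 3 of the 7 genes of the list with a mean count of at least 100, against 17 of 13891 genes (0.122%) in all. Cdx2, the factor that defines intestine, was close to 0. The 7 genes with a mean TPM of at least 1 had a median log2 difference of -0.18, with 6 lower in pup 2. The part of duodenal tissue in the levels of Pdx1 and Nkx6-3 was not tested.

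Of 12 pancreas genes, 7 were detected, led by the digestive enzymes Ctrb1 (20.6 and 17.2), Cela2a (19.3 and 15.6) and Amy2a5 (20.8 and 6.60), whose counts are uncertain because near-identical amylase copies share reads. The hormone genes Ins1 (0.24 and 0.71) and Ins2 (1.47 and 5.55) were called higher in pup 2 at a minimum count of 10, as 110 of 18333 genes were (0.600%). Ptf1a, the acinar factor, was at 0.70 and 0.41, and Mafa, a factor of mature insulin cells, had 0 counts in both pups. Of the 8 genes of the list with a mean TPM of at least 1, 3 were higher and 5 lower in pup 2. Pdx1 stood at 1.58 and 1.37. The summed TPM of the list was 80.5 in pup 1 and 61.99 in pup 2. Most of that difference lies in Amy2a5, with its uncertain counts, so the sum is not read as less pancreatic RNA in pup 2. The part of pancreatic RNA in the level of Pdx1 was not tested.

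**Figure D4:**
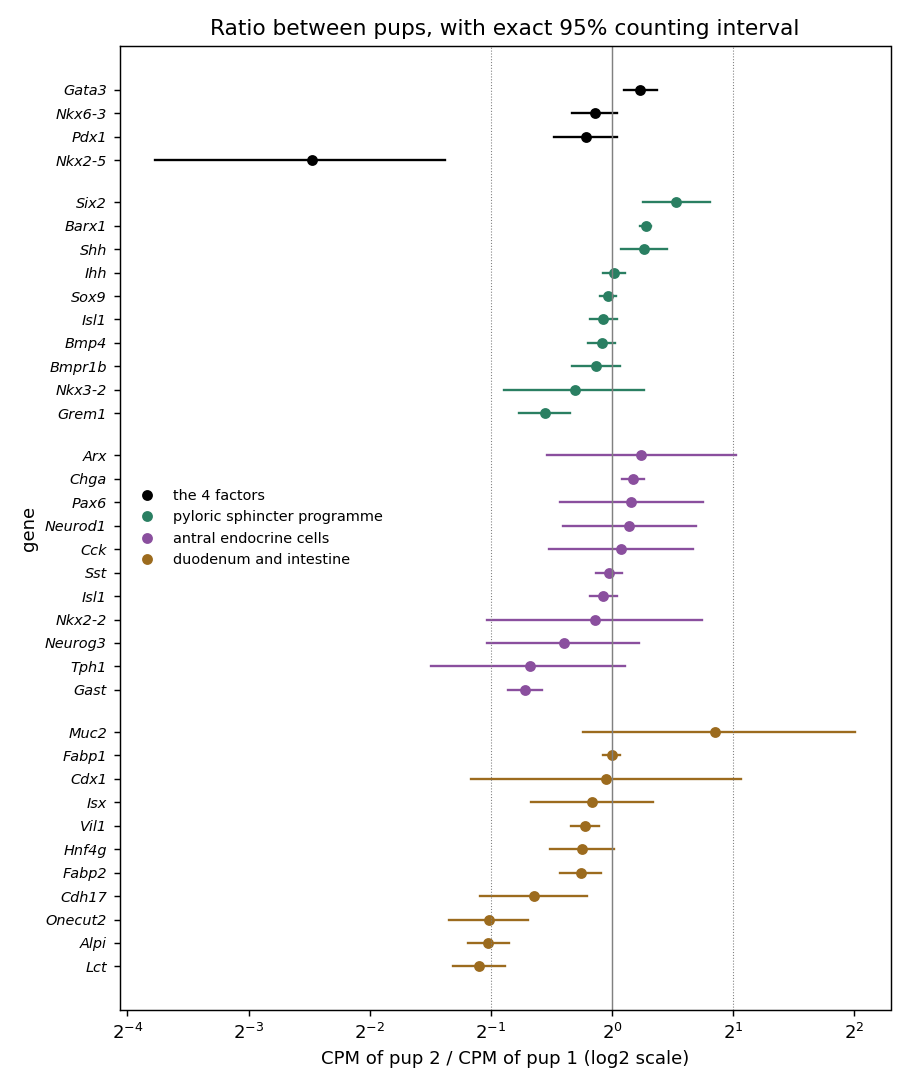
CPM of pup 2 over CPM of pup 1 (log2 axis) with exact 95% counting intervals, for genes with a mean count of at least 10: the 4 factors, the pyloric sphincter programme, the antral endocrine list and the duodenum and intestine list. Dotted lines mark 2-fold. Nkx2-5 has the lowest ratio plotted (0.179), Grem1 and Gast lie between the 2-fold line and 1, and Lct, Alpi and Onecut2 lie at the lower 2-fold line.

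Nkx2-5 also marks the heart and the spleen anlage. Of 8 heart muscle genes, 3 were detected, the light chain gene Myl7 (126 and 128), Tnnt2 (31.0 and 34.0) and Tnni3 (21.4 and 27.1), and the summed TPM of the list was 180.2 and 190.4. The defining cardiac myosin Myh6 had 6.70 and 11.1 counts, and the light chains Myl2 and Myl3 had 3 to 5 counts. Nppa, an atrial hormone gene, had 20 counts in pup 1 and 8 in pup 2. Of 5 genes of spleen mesenchyme, 4 were detected, Tcf21 (83.2 and 83.3), Ccl21a (27.1 and 26.7), Madcam1 (16.9 and 12.6) and Wt1 (3.07 and 4.29), but Tlx1, the defining spleen factor, had 1 count in each pup. The summed TPM of the spleen list was 130.2 and 126.9. No gene of either list was called.

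Gata3 is made by several cell types of the stomach. Of 9 genes of T cells and innate lymphoid cells, 2 were detected, Thy1 (1.94 and 2.15) and Lck (1.61 and 1.45), and the list, with Cd4 (0.39 and 0.56) the next highest, summed to 4.94 and 5.28 TPM. The T cell receptor complex genes Cd3d, Cd3e and Cd3g had 1 to 8 counts in each pup. The 7 genes of squamous epithelium, the lining of the forestomach, were all detected, led by the keratins Krt4 (3841 and 4134), Krt13 (2408 and 2743) and Krt15 (651 and 791). Their summed TPM was 7609 in pup 1 and 8432 in pup 2. Of 7 genes of sympathetic and enteric neurons, 5 were detected, led by Tubb3 (20.9 and 21.2), Elavl4 (12.6 and 15.2) and Hand2 (6.90 and 6.10), with a sum of 49.7 and 52.4. Dbh, the noradrenaline enzyme of sympathetic neurons, stood at 0.12 and 0.18. Of 5 mast cell genes, 4 were detected, led by Tpsb2 (15.5 and 15.9), Cpa3 (9.28 and 9.30) and Mcpt4 (3.56 and 3.59), with a sum of 31.0 and 31.9. The ratio of summed TPM, pup 2 over pup 1, was 1.07 for T and innate lymphoid cells and 1.11 for squamous epithelium. It was 1.05 for neurons and 1.03 for mast cells. Other lists also had a higher sum in pup 2, among them the pyloric sphincter programme (1.14) and the Pdx1 cofactors and regulators (1.13). The first rose mostly through Barx1 (140.7 and 172), while 5 of its 9 genes with a mean TPM of at least 1 were lower in pup 2. The second rose mostly through Foxa1 (13.8 and 24.6), with 6 of 8 such genes higher. Lower sums were seen too, such as that of gut smooth muscle (0.805), so the direction of a sum is not particular to these 4 lists. The part of these cells in the level of Gata3 was not tested.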

How the data were processed

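Total RNA of the stomach was measured in 2 littermate pups, 1 library each. The build is mm10 and the annotation GENCODE M4, per the deposited notes. No aligner or quantifier is named in the sources used here, though headers have the form of RSEM output. Expected counts, the authors' estimated reads for every gene, carry no depth scaling. In the deposited TPM the total runs over 69691 features, among them spike-ins and tRNAs, and each value has a credibility interval. The authors' isoform share is a percent of the TPM of its gene. Of 43346 Ensembl genes, 42462 matched a GENCODE M21 symbol by ID without version.

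Ratios between pups were computed from CPM, with exact binomial intervals (scipy 1.17.1), and as log2 of TPM with a pseudocount of 1. TMM factors (edgeR 4.0.16) and DESeq2 1.42.0 size factors on rounded counts of genes with a mean count of at least 10 served as alternatives only; no test was run. Calls were checked on simulated data with counting error only, so the check does not cover spread between animals. Replicates were compared by chi-square on counts: 41.7% of detected genes lay beyond the 95% point, against 5% by sampling. The libraries were kept as 2 samples because their labels name 2 pups. The chi-square cannot show this, since library preparation can also add spread beyond sampling. Genes were named by a rule: the 4 factors, both families, the 3 highest genes of each of 18 lists, genes at 0 in both pups, the nearest factor above and below each in level, genes that flank or overlap a factor, and a few fixed names (Gast, Sst, Sox9, Isl1, Grem1, Barx1, Ins1, Ins2, Ptf1a, Cdx2, Tlx1, Myh6, Cd3e); other genes were chosen after their values were seen. The factors and lists were chosen with earlier results of these data known. A few list genes are not reported here and enter no list count or sum. RefSeq promoter windows were found for 3 of the 4 factors.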

Additional observations from a re-analysis of the deposited data

How the results depend on the processing

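The order of the 4 factors held in each pup alone and with posterior mean TPM. Leaving out 1 pup gave levels of 6.43 to 7.62 TPM for Gata3, 5.35 to 5.86 for Nkx6-3, 1.37 to 1.58 for Pdx1 and 0.14 to 0.78 for Nkx2-5, whose level rests on pup 1. Scaling TPM over nuclear protein-coding genes alone, a smaller total by construction, gave 8.32 for Gata3, 6.64 for Nkx6-3 and 1.75 for Pdx1. The shorter M21 model, chosen after the data were seen, gave 3.02 for Pdx1. The log2 difference of Nkx2-5, pup 2 against pup 1, was -1.87 with a pseudocount of 0.1 and -2.37 with DESeq2 size factors, where the added 1 weighs less. The share of the main Gata3 transcript was 89.2% by posterior mean TPM, against 100% by TPM. Its 5 other transcripts had a summed posterior mean of only 4.56 counts in pup 1 and 6.07 in pup 2, so the rest is not read as RNA of other isoforms. The number of genes called higher and lower in pup 2, 42 and 17, followed its limits: a 1.5-fold limit gave 150 and 76, a 3-fold limit 13 and 0, a minimum mean count of 10 gave 110 and 46, one of 1000 gave 9 and 1, and counts between 10 and 100 gave 68 and 29, a range chosen after the data were seen. No paired analysis was possible because there is 1 group of 2 pups. The 8 to 46 counts of Nkx2-5 limit its precision.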

Other observations

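Foxa1, a factor of endoderm that was in the list of Pdx1 regulators, stood at 13.8 TPM (pup 1) and 24.6 TPM (pup 2). By CPM it was 1.77 times higher in pup 2 (1.67 to 1.87, an exact 95% binomial interval), under the 2-fold limit, while the related Foxa2 stood at 10.4 and 9.93. Nkx6-1 was 1.84 times higher in pup 2 (1.47 to 2.32), while Nkx6-2 was 1.31 times higher in pup 1 (1.13 to 1.52) and Nkx6-3 differed by less than counting error. These genes were chosen after their values were seen, and with 1 library per pup the differences have no replicate check.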
